A study of Mus musculus with 5 samples.

Results

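The cells described here are mouse kidney tubule cells that carried the injury transcripts Havcr1 or Krt20 in droplet single-cell RNA libraries, in which the ureter of one kidney had been tied and later freed (unilateral ureteric obstruction, UUO). They were chosen by their own counts: at least 2 unique molecular identifiers (UMIs, each 1 counted RNA molecule) of Havcr1 and Krt20 together, under 5 UMIs of the fibrinogen genes Fga, Fgb and Fgg together, no UMI of the leukocyte gene Ptprc, at most 1 UMI of the endothelial gene Egfl7, and no UMI of the urothelial genes Upk1b and Upk3a. This rule found 115 of 13823 kept cells, where a kept cell had 200 genes or more and no more than 50% of its UMIs from mitochondrial genes. The libraries came from kidneys of C57/BL6 mice aged 8 weeks, digested on ice and sorted for live cells with DAPI. The 4 groups were sham surgery (day 0), UUO at day 2, UUO at day 7, and reversed UUO, collected 7 days after the obstruction was removed, on experimental day 14. Each group was a single library that pooled 3 mice, and no other sample stood for a time point. Differences between time points therefore have no replicate check, and the intervals given for levels and shares are exact 95% intervals that cover counting error only.

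Havcr1 encodes kidney injury molecule 1, a membrane receptor that is scarce in the healthy nephron and appears on injured proximal tubule cells, where it takes part in the uptake of dying cells. Krt20 encodes a keratin filament protein known from bladder and gut epithelium that injured tubule cells also come to express. Vcam1, an adhesion molecule for leukocytes, marks proximal tubule cells that have not returned to their mature state after injury, and Sox9 is a transcription factor of tubule development that is re-expressed during repair. On the GRCm38 annotation, Havcr1 lies on chromosome 11 from 46735080 to 46779578 and Krt20 on chromosome 11 from 99428403 to 99438150. Vcam1 lies on chromosome 3 from 116109949 to 116129688, and Lcn2, an injury gene found in part of these cells, on chromosome 2 from 32384633 to 32388252.

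Whole libraries held 18649637 to 30462683 UMIs, with a median of 2480.5 to 5668 UMIs per deposited cell, and the sham library was both the shallowest per cell and the richest in mitochondrial UMIs (median 40.6%, against 3.00% to 16.2% in the others). Pairs of libraries shared 16 to 39 cell barcodes, and none of the shared barcodes belonged to a selected cell. Of the 253 cells with enough Havcr1 and Krt20, 84 failed the fibrinogen limit, 54 carried Ptprc and 13 exceeded the Egfl7 limit, with some cells failing more than 1 condition. The fibrinogen limit removed cells unevenly, 55 of 113 on day 2, 27 of 120 on day 7 and 2 of 20 after reversal, and since injured tubule cells can express fibrinogen genes themselves, it may also remove injured tubule cells.

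No sham cell met the rule: 0 of 3933 kept cells, which allows a share of up to 0.0763% (3 counts of the total) or, by the exact interval, 0.0937%. For the 3510 sham tubule cells the bound from 3 counts was 0.0855%. With at most 20% mitochondrial UMIs, 648 kept and 304 tubule cells of sham remained, and these bounds were 0.463% and 0.987%. In the day 2 library 50 of 2207 kept cells were selected, a share of 2.27% (1.69 to 2.98%). In the day 7 library it was 52 of 4447, or 1.17% (0.875 to 1.53%), and in the reversed library 13 of 3236, or 0.402% (0.214 to 0.686%). The order of the first 2 of these time points turned around when only tubule cells were counted, because tubule cells were a small share of the day 7 library. The share of tubule cells was 4.17% in the day 2 library (3.11 to 5.46%) and 7.51% in the day 7 library (5.66 to 9.74%). In the reversed library it was 0.795% (0.424 to 1.36%). Without the fibrinogen limit, an alternative added after seeing the data, 102, 71 and 15 cells were selected, or 8.5% (6.98 to 10.2%), 10.2% (8.05 to 12.7%) and 0.917% (0.514 to 1.51%) of tubule cells, so the day 2 and day 7 intervals then overlapped. In this pooled design fewer cells of a kind and less RNA per cell cannot be told apart from a difference in what was recovered by digestion and sorting. A further 161 cells passed the exclusions with exactly 1 UMI of the 2 genes: the sham library held 5 of them, the obstructed libraries 73 and 65, and the reversed library 18.

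**Figure D1:**
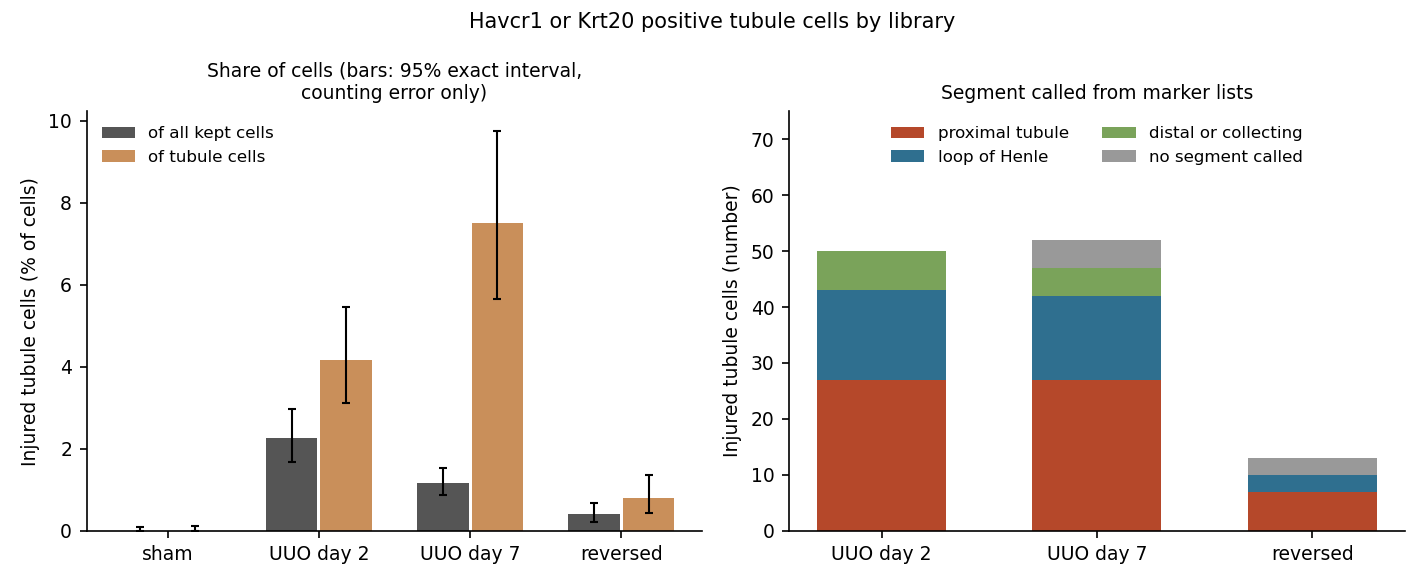
Left, percentage of all kept cells (grey) and of tubule cells (brown) that met the rule in each library, with exact 95% intervals; right, number of selected cells by the segment called from marker lists. The sham library has none, the share of tubule cells is highest on day 7 at 7.51%, and proximal tubule cells are the largest group in the 3 libraries that hold selected cells.

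Havcr1 carried the rule almost alone. It supplied most of the counted UMIs in 110 cells, Krt20 did so in 3 cells, and 2 cells were tied. Krt20 had a UMI in 13 cells, 3 on day 2, 8 on day 7 and 2 after reversal, and its highest count was 14 UMIs in a thin-limb cell of day 7 that also held 28 Havcr1 and 66 Vcam1 UMIs. The median was 4 Havcr1 UMIs per selected cell, 18 cells held at least 10, and the highest count was 57, in a proximal tubule cell of day 7. At the limit of the rule, 17 cells of day 2, 15 of day 7 and 3 of the reversed library had exactly 2 UMIs. The cells just outside it, with 1 UMI, had 155.7 CPM (UMIs per 1000000 summed UMIs) of Vcam1 on day 7, against 500.07 CPM in the cells with 2 UMIs and 75.2 CPM in the 8 cells with 3. A single cell with 2 UMIs, both of Krt20, held 40 Vcam1 UMIs and most of the level of its group.

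The selected cells were deeper than the other tubule cells of their library, meaning tubule cells that passed the same exclusions with no UMI of Havcr1 or Krt20. Their median depth was 5925.5 UMIs on day 2, 9008.5 on day 7 and 8999 after reversal, against 5457.5, 5756 and 4909.5 in the other tubule cells. Median mitochondrial shares were 19.5%, 7.49% and 10.7%, against 21.4%, 14.0% and 29.1%. A rule that counts UMIs finds a deep cell more easily than a shallow one. With every cell thinned to 1000 UMIs, 20, 21 and 4 cells still met it.

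The proximal tubule was the largest group among the selected cells by markers that the rule did not use. From lists of transporter and enzyme genes of each segment, 61 of the 115 cells were called proximal tubule, 20 thick ascending limb, 14 thin limb, 9 distal convoluted tubule, 2 principal cell and 1 intercalated cell, and 8 stayed without a call. Proximal cells were 27 of the 50 of day 2 (54.0%, 39.3 to 68.2%), 27 of the 52 of day 7 (51.9%, 37.6 to 66.0%) and, in the reversed library, 7 of 13 (53.8%, 25.1 to 80.8%), though with other cell types allowed as answers 27 of 50, 19 of 52 and 7 of 13 were called proximal, and 11 of the day 7 cells had no call. Among the other tubule cells the proximal share was 41.5%, 27.0% and 72.1%. Intercalated cells, the acid-base transporting cells of the collecting duct, were 12.8% and 18.9% of other tubule cells on day 2 and day 7. They were 0 of 50 and 1 of 52 of the selected cells. A second scoring, on the summed UMIs of each list, put 94 of the 115 in the same segment group. It gave proximal shares of 48%, 42.3% and 38.5%, and loop of Henle shares of 38%, 38.5% and 38.5%. The proximal share of day 2 rested on cells rich in mitochondrial RNA: with a limit of 20% mitochondrial UMIs it was 29.6% (8 of 27 cells), and loop of Henle cells were 51.9%, while the proximal shares of day 7 and the reversed library were 49.0% and 45.5%.

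Markers of other cell types were low, except those of phagocytes, which stood at similar levels in the selected and the other tubule cells of a library. No selected cell held 3 or more UMIs of the podocyte, T cell or urothelium lists, and Upk2, Upk1a, Krt5, Pdgfra and Ms4a1, defining genes of urothelium, fibroblasts and B cells, had none at all. In the other tubule cells Krt5 also had none on day 2, on day 7 or after reversal, and Upk2 none on day 7 or after reversal. Ms4a1 had none there on day 7, and Pdgfra none on day 2. Other genes of these lists were present: 7 of 8 fibroblast genes and 4 of 5 B cell genes had UMIs in the selected cells of day 7. The endothelial, fibroblast, B cell and neutrophil lists stood at 0.117 to 1.83 UMIs per 10000 UMIs. On day 7, however, 6, 7, 13 and 15 of the 52 selected cells held at least 3 UMIs of these lists (11.5%, 13.5%, 25% and 28.8%), against 2.77%, 3.78%, 7.56% and 9.82% of the other tubule cells, which were shallower. The phagocyte list stood at 4.61, 22.2 and 8.70 UMIs per 10000 UMIs in the selected cells of day 2, day 7 and the reversed library, against 4.77, 21.4 and 8.23 in the other tubule cells, with the day 7 library highest in both groups. When phagocytes and other cell types were allowed as answers, 7 day 7 cells and 1 reversed cell scored as phagocytes.

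The label's other markers, Vcam1 and Sox9, were present but not in every cell. On day 2 Vcam1 stood at 35.1 CPM (15 UMIs, 19.6 to 57.9), on day 7 at 707 CPM (378 UMIs, 638 to 782), and in the reversed library at 658 CPM (90 UMIs, 529 to 809). In the other tubule cells it was 16.7, 21.2 and 31.8 CPM, and in endothelial cells, which use Vcam1 themselves, 191, 119 and 266 CPM. The share of selected cells with a Vcam1 UMI was 10% in the day 2 library, 63.5% in the day 7 library and 53.8% in the reversed one, and 6%, 30.8% and 30.8% at 1000 UMIs per cell. Day 2 was thus the low library for Vcam1 at either depth, and a single cell held 8 of its 15 UMIs. Sox9 was far lower, at 23.4, 35.6 and 110 CPM from 10, 19 and 15 UMIs, with a UMI in 16%, 21.2% and 23.1% of the cells, and in 0%, 3.85% and 0% at 1000 UMIs per cell. In the other tubule cells Sox9 stood at 13.3, 20.8 and 8.24 CPM.

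Vcam1 and Lcn2 each marked a part of the selected cells. Lcn2 encodes lipocalin 2, an iron-carrier binding protein secreted by injured distal nephron. At least 3 Vcam1 UMIs were found in 28 of the 115 cells and at least 10 Lcn2 UMIs in 35. Both counts were reached in 3 cells and neither in 55. Of the 61 proximal cells, 20 reached the Vcam1 count and 1 the Lcn2 count. Of the 34 loop of Henle cells, 3 reached the Vcam1 count and 22 the Lcn2 count, and of the 12 distal or collecting cells, 2 and 9. Lcn2 differed by segment in the other tubule cells too, at 107, 64.0 and 17 CPM in proximal and 2391, 1306 and 517 CPM in loop and distal cells of day 2, day 7 and the reversed library. Within the selected proximal cells, 1 of 27 reached the Vcam1 count on day 2, 14 of 27 on day 7 and 5 of 7 after reversal. These cut-offs were set after the counts had been seen. Whether fewer cells reached both counts than the segments alone would give was not tested.

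**Figure D2:**
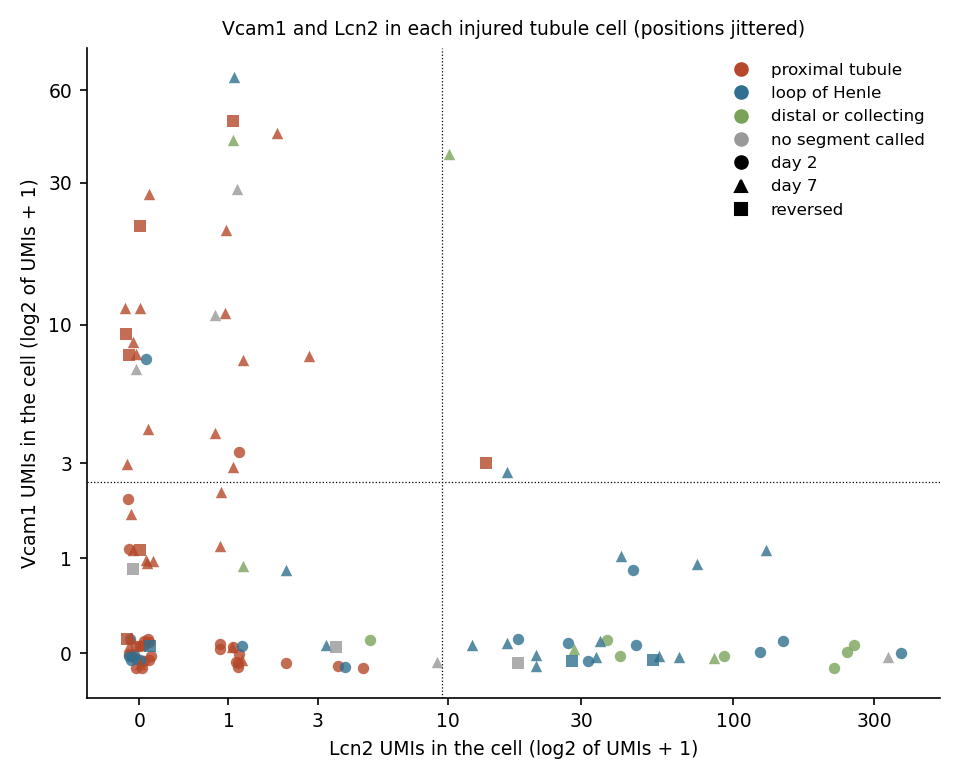
Vcam1 against Lcn2 UMIs in each of the 115 selected cells, both on a log2 scale of UMIs plus 1 with small random shifts so that points do not hide each other; colour gives the segment, shape the library, and dotted lines the counts of 3 and 10. Of the 115 cells, 55 reach neither line and 3 reach both.

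Genes outside the rule were then compared between the selected cells and the other tubule cells of the same library, on UMIs summed per library and cell group, with edgeR's quasi-likelihood test, library as a block and Benjamini-Hochberg adjustment. Only day 2 and day 7 held at least 20 cells in each group. Of 10088 genes, 92 were higher in the selected cells (0.912%) and 138 lower (1.37%). Of the 10 injury genes 4 rose. Vcam1 rose by 3.47 on the log2 scale (SE 0.67, adjusted p = 0.0227), C3, the central complement component, by 2.16 (SE 0.34, adjusted p = 0.00701), Mmp7, a matrix protease, by 1.97 (SE 0.40, adjusted p = 0.0316), and Cp, the ferroxidase ceruloplasmin, by 1.86 (SE 0.25, adjusted p = 0.00278). Mmp7 rested on few cells, 3 on day 2 and 8 on day 7. The median of the injury list was 0.97, against -0.01 over all genes tested.

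Other lists moved in part. The receptor CD44 (Cd44) and the annexins Anxa2 and Anxa3 rose among the 18 keratin and surface genes, while the tight junction gene Cldn4 was among those that fell. Of 12 chemokine and cytokine genes tested, the neutrophil attractant Cxcl1, the macrophage growth factor Csf1 and the TWEAK receptor Tnfrsf12a rose. The nephron transcription factor Pax8 was the 1 of 10 repair factors tested that rose (1.05, SE 0.20, adjusted p = 0.0206). With the reversed library added, neither Pax8 (0.89, SE 0.23, adjusted p = 0.083) nor Mmp7 (1.69, SE 0.50, adjusted p = 0.142) passed. Sox9 did not pass (0.76, SE 0.36, adjusted p = 0.389). Of 10 salt and water transport genes of the distal nephron 8 fell, led by the sodium channel subunit Scnn1g and including the water channels Aqp2 and Aqp3, and the median of that list was -3.48. Segments differed between the groups as well. Principal cells were 2% and 1.92% of the selected cells on day 2 and day 7 against 6.90% and 11.8% of the others. Connecting tubule cells were 0% on both days against 1.30% and 10.6%, and thick ascending limb cells 16% and 19.2% against 28.6% and 20.4%. Distal convoluted cells, however, were 12% against 3.39% on day 2 and 5.77% against 5.79% on day 7. The second scoring kept 3 of the 7 distal or collecting calls of day 2 and 7 of the 12 in all, and put the day 2 share of the distal or collecting cells at 8% in place of 14%. All 10 genes of the list are also segment markers. The comparison cells had to score for a segment on such markers, while the selected cells did not. The parts of this choice and of the segment mix in the list's fall were not tested.

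The largest increases by the naming rule were Spaca7, Il1f6, Vcam1, Il1rn, Hsd17b2, Ubd, Smpdl3b, Fst, Defb36 and D630011A20Rik. Several of them sat in few cells. Il1f6, an interleukin 36 gene, had 199 UMIs on day 2 and 229 on day 7, in 8 cells each time. Fst, which encodes the activin inhibitor follistatin, had 141 and 132 UMIs, of which 100 and 103 lay in a single cell. Ubd, a ubiquitin-like protein of the cytokine response, was spread over 14 cells on day 7, at 129 CPM against 10.99 CPM in the other tubule cells. Among the largest decreases, Stc1, Spink12, Hhatl, Clec2h, Tmod1 and Insrr had no UMI in the selected cells, and Clec2h was at least 6.65-fold lower. The next largest were Slc26a4, the anion exchanger of intercalated cells, Scnn1g, Trpv5 and Kcne1. Insrr, Slc26a4, Scnn1g and Trpv5 are segment markers too, so the limit given for the salt and water list holds for them. The block mattered to this test: without it 1 gene was higher and 4 lower, and at 1000 UMIs per cell 4 and 4. Without the block 44 of the 46 calls of named genes were lost. Of those that could be tested, 19 of 37 were lost with DESeq2 and 18 of 23 at 1000 UMIs per cell.

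Proximal tubule cells were then compared among themselves. The 27, 27 and 7 proximal cells with Havcr1 or Krt20 were compared with 319, 107 and 1024 other proximal tubule cells of day 2, day 7 and the reversed library, a test with sums of as few as 7 cells that was added after seeing the data. Of 4266 genes, 201 were higher (4.71%) and 224 lower (5.25%), a split that became 259 and 117 when counts were scaled to total UMIs, which moved the median of all genes from 0.03 to 0.29 on the log2 scale. Depth differed with the groups on day 7 and after reversal (medians of 7985 and 8999 UMIs against 4054 and 4399.5), and so did the mitochondrial share (8.63% and 13.1% against 24.7% and 31.4%), while on day 2 both were nearer to each other (3863 against 3833 UMIs, 22.6% against 25.5%). Genes pass the filter on low counts more easily through the group where they are high, so the counts of list members below describe only the genes that passed and support no direction for a list. The comparison cells had to score as tubule among all cell types, whereas the selected cells were called among tubule segments. With the selected cells held to the same call, an alternative added after seeing the data, 27, 19 and 7 cells remained, and of 3915 genes 121 were higher and 104 lower. Among the genes named below, C3, Spp1, Sox9, Cxcl10, Maf, Esrra, Acaa1b, Acadm and Acadvl then no longer passed, in the same direction, and Aoc1, Ddit4l, Sfn and Pcna were below the filter. At 1000 UMIs per cell 35 genes were higher and 41 lower, and with at most 20% mitochondrial UMIs 26 and 25.

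Of 7 injury genes tested in proximal cells 4 rose, Vcam1, Cp, C3 and Spp1. Vcam1 stood at 42.3, 697 and 988 CPM, against 6.28, 54.3 and 22.7 CPM in the other proximal cells, and rose by 4.04 (SE 0.39, adjusted p = 0.000108). In the reversed library 47 of the 89 Vcam1 UMIs lay in 1 of 7 cells, and without that cell the level was 541 CPM. Cp stood at 282, 831 and 577 CPM against 37.7, 73.7 and 29.6 CPM, a rise of 3.32 (SE 0.26, adjusted p = 2.27e-05). Both genes were above the comparison group in each library, and both stayed past the threshold with any 1 library left out. C3 rose by 2.04 (SE 0.42, adjusted p = 0.00989), from 409 against 199.6 CPM on day 2 to 843 against 45.0 CPM after reversal. Spp1, the secreted phosphoprotein osteopontin, had a UMI in every selected cell and stood at 35039, 18347 and 14693 CPM in the proximal ones, against 19309, 5034 and 1959.8 CPM. Its rise of 1.61 (SE 0.46, adjusted p = 0.042) was lost without day 7 and without the reversed library. Spp1 was also found at 2668, 2620 and 1282 CPM in endothelial cells of day 2, day 7 and the reversed library. Lcn2, Clu and Igfbp7 were not called here. Lcn2 stood at 134, 55.4 and 178 CPM against 107, 64.0 and 17 CPM, and 15 of its 16 reversed UMIs lay in 1 cell, without which the level was 15.8 CPM. On day 2 the selected cells were below the others for Clu (225 against 374 CPM) and Igfbp7 (930 against 1327 CPM).

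Some genes of the cell surface and cytoskeleton also rose. Hspb1, a small heat shock protein that binds actin, stood at 162, 297 and 444 CPM against 11.9, 23.3 and 30.8 CPM and rose by 3.48 (SE 0.27, adjusted p = 2.27e-05), with UMIs in 14 of 27, 14 of 27 and 7 of 7 cells. Of the 18 keratin and surface genes 10 passed the filter and 5 of these rose: Sfn, Anxa3, Anxa2, S100a10 and S100a11. Sfn, the epithelial adaptor stratifin, rested on 5, 4 and 3 cells. Of 9 genes of cytoskeleton, matrix and growth factors tested 4 rose, the platelet growth factor gene Pdgfb, the matricellular gene Cyr61, the basement membrane collagen Col4a1 and tropomyosin Tpm1. Cyr61 stood at 162, 697 and 155 CPM against 35.6, 34.9 and 24.6 CPM. Of the 10 largest increases the others were Aoc1, Sytl2, Ddit4l, Actn1, Dcdc2a and Cxcl1.

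All 6 transcription factors of repair and dedifferentiation that passed the filter on low counts, of 12 in the list, were higher. Klf6, a zinc finger factor induced by injury, stood at 119.8, 495 and 499 CPM against 37.7, 42.7 and 43.9 CPM and rose by 2.71 (SE 0.30, adjusted p = 0.000329). Sox9 stood at 35.2, 43.5 and 166 CPM against 10.5, 15.5 and 3.54 CPM, on 5, 11 and 15 UMIs, and rose by 3.04 (SE 0.69, adjusted p = 0.0159). Without the reversed library the estimate for Sox9 was 1.38 and did not pass. Sox4 was called but was not higher on day 2, at 21.1 against 24.4 CPM. The others were Nfkb1, Cited2 and Pax8. Of 5 factors of the mature tubule tested, Maf fell by 1.49 (SE 0.32, adjusted p = 0.0115) and Esrra, a regulator of mitochondrial genes, by 1.23 (SE 0.37, adjusted p = 0.04996), while Hnf4a, which maintains proximal identity, did not pass (-0.77, SE 0.25, adjusted p = 0.0764).

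Of the 14 chemokine and cytokine genes 7 passed the filter and 5 of these rose: Cxcl1, the macrophage growth factor Il34, Tnfrsf12a, the lymphocyte attractant Cxcl10 and the adhesion molecule Icam1. Tnfrsf12a stood at 141, 273 and 255 CPM against 37.7, 25.2 and 20 CPM and rose by 2.74 (SE 0.31, adjusted p = 0.000358). Cxcl1, at 49.3, 166 and 44.4 CPM against 13.3, 9.70 and 0.886 CPM, lost its call without day 7. Cxcl10 was not higher on day 2 (7.05 against 8.38 CPM), so its call came from the later libraries. The cell cycle inhibitor Cdkn1a was the 1 of 5 p53 targets tested that rose (1.66, SE 0.45, adjusted p = 0.0349). Fos, Hspa1a, Ier2 and Junb rose among 9 immediate-early and heat shock genes tested, and none of 7 antigen presentation genes, 7 stress genes or 9 glycolysis genes passed the test. B2m, the light chain of class I molecules, stood at 817, 2545 and 2031 CPM against 777, 1180 and 611 CPM (0.72, SE 0.27, adjusted p = 0.114), and H2-K1 at 113, 938 and 910 CPM against 172, 314 and 183 CPM (1.00, SE 0.35, adjusted p = 0.0952).

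Among the 224 genes that fell were transporters and enzymes of the mature proximal tubule. Of 17 transport and metabolism genes tested 11 fell and none rose, with a median of -1.72. The organic anion transporter Slc22a8 stood at 7.05, 19.8 and 22.2 CPM against 66.3, 128 and 178.7 CPM and fell by 3.19 (SE 0.39, adjusted p = 0.000615). Pck1, the entry enzyme of gluconeogenesis, stood at 155, 186 and 66.6 CPM against 641, 849.7 and 536 CPM and fell by 2.56 (SE 0.29, adjusted p = 0.000329). The selected cells were lower in each of the 3 libraries for both genes. The rest were the transporters Slc7a13, Slc6a19, Slc22a6, Slc5a12, Slc22a12, Slc13a3, Slc5a2, Slc17a3 and Slc4a4, of which Slc17a3 turned to 0.26 at 1000 UMIs per cell. With the selected cells held to the call among all cell types, 9 of the 11 stayed past the threshold, and Slc17a3 and Slc4a4 did not. Of the 11, Slc7a13, Slc6a19, Slc5a12 and Slc5a2 are on marker lists for the S1 and S3 parts of the proximal tubule. Those lists helped to choose the reference cells of the segment calls. Of 12 fatty acid oxidation genes 4 fell, among them the peroxisomal enzyme Acaa1b and the mitochondrial dehydrogenases Acadm and Acadvl, by 0.97 to 1.35. Among the largest decreases were Spp2, at 7.05, 27.7 and 55.5 CPM against 383, 174.6 and 708 CPM, the brush border dipeptidase Dpep1, Car14, Plekha6, Inmt, G6pc and Susd2. Clec2h had no UMI in these 61 cells and was at least 10.1-fold lower.

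**Figure D3:**
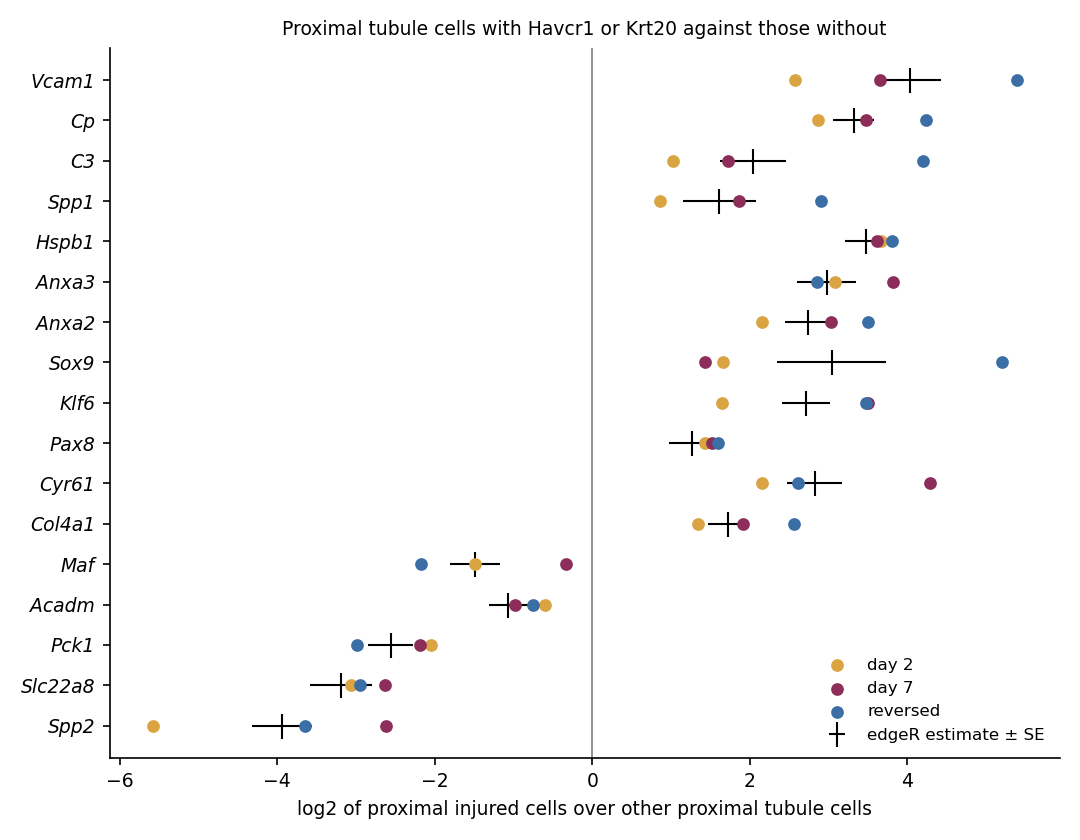
Log2 of CPM plus 1 in proximal tubule cells with Havcr1 or Krt20 over other proximal tubule cells for 17 genes named in the text. Coloured points are the 3 libraries, and black marks give the edgeR estimate with a standard error derived from its F statistic. Vcam1, Cp and Hspb1 lie above 2 in each library, and Pck1, Slc22a8 and Spp2 lie below -2.

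The number of genes called in the proximal test depended on the libraries used. It was 464 higher and 581 lower without day 2, 65 and 43 without day 7, and 56 and 58 without the reversed library. Many of the 61 calls of named genes were lost too, 28 of 59 that could be tested without day 7, 26 of 60 without the reversed library and 25 of 40 at the limit of 20% mitochondrial UMIs, against 1 of 61 without day 2. The selected cells of all segments and the proximal ones shared 43 genes called higher, 46.7% of the first list and 21.4% of the second, and 12 called lower, 8.70% and 5.36%, in tests that share cells.

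Proximal cells with Havcr1 or Krt20 were next compared with loop, distal or collecting cells, 27, 27 and 7 against 23, 20 and 3 cells. Most of the second group were loop cells, 16, 15 and 3 of them. This test was added after seeing the data. It left out the marker lists of the segments, though not the S1 and S3 lists of the proximal tubule. Of 2778 genes, 174 were higher in proximal cells (6.26%) and 115 lower (4.14%). Lcn2 stood at 134, 55.4 and 178 CPM in proximal cells against 5907, 2835 and 2381 CPM and was lower by a log2 difference of -4.92 (SE 0.38, adjusted p = 9.47e-05). Clu, the secreted chaperone clusterin, stood at 225, 233.5 and 266 CPM against 9298, 5599 and 4395 CPM (-4.60, SE 0.29, adjusted p = 5.77e-05). For both genes the levels of the proximal cells lay below those of the other cells, with no overlap between the 3 libraries of each. Spp1 was also lower in proximal cells (-1.73, SE 0.42, adjusted p = 0.0261), and C3 was higher (1.97, SE 0.53, adjusted p = 0.0402).

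Of 13 keratin and surface genes tested, 7 were lower in proximal cells than in loop, distal and collecting cells, among them the keratins Krt7, Krt8 and Krt18 and the surface or binding proteins Cd24a, Lgals3 and Anxa2, and none was higher. Krt7 stood at 28.2, 7.92 and 11.1 CPM in proximal cells against 385, 289 and 732 CPM. Fst had no UMI in the 61 proximal cells, and of its 141, 132 and 26 UMIs in the other cells 100, 103 and 26 lay in 1 cell each. Vcam1 did not pass in this test (1.05, SE 0.68, adjusted p = 0.484). It stood at 42.3 CPM in proximal and 31.5 CPM in the other cells on day 2. After reversal it stood at 988 CPM in proximal cells and had no UMI in the 3 loop cells. On day 7 it stood at 697 CPM in proximal and 693 CPM in the other cells. In the latter, 3 of the 20 cells, called thin limb, distal convoluted tubule and principal cell, held 66, 42 and 40 of the 156 UMIs. Of these, the thin limb cell had 10 UMIs of its marker Cryab and none of Slc14a2, and the distal convoluted cell none of Slc12a3. With other cell types allowed as answers, 3 of 5 thin limb, 2 of 3 distal convoluted and 0 of 1 principal cell calls of day 7 stayed. Cyr61, B2m and Cd74 were higher in proximal cells, and Ccl2 was called with 213 of its 270 day 7 UMIs in 1 cell. Hnf4a, Maf, 8 of 10 proximal transport genes and 4 of 9 fatty acid oxidation genes were higher. The groups had been formed by segment markers, and the part of that choice in these differences was not tested. Without the reversed library, with its 3 loop cells, 35 genes were higher and 16 lower, without day 7 the counts were 115 and 69, and without day 2 they were 100 and 79. Of the calls of named genes that could be tested, 32 of 47 were lost without the reversed library. Without day 7 it was 2 of 31, and without day 2 it was 6 of 41.

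Thick ascending limb cells, 8 on day 2 and 10 on day 7, were compared with 220 and 81 other thick limb cells in the same way. Of 5090 genes 22 were higher (0.432%) and 19 lower (0.373%). Of 8 injury genes tested 6 rose: Mmp7, Cp, Clu, Lcn2, Igfbp7 and Spp1. Lcn2 stood at 6559 and 3996 CPM against 3283 and 2169 CPM (0.90, SE 0.15, adjusted p = 0.000592), and Clu at 11388 and 8664 CPM against 8354 and 2545 CPM (1.06, SE 0.21, adjusted p = 0.00387). Ctsl, the lysosomal protease cathepsin L, had UMIs in all 8 and all 10 cells, at 2004 and 2371 CPM against 548 and 384 CPM (2.20, SE 0.19, adjusted p = 3.22e-09). The larger rises of Il1rn, Il1f6 and Mmp7 came from 1 cell on day 2 and 3 or 4 cells on day 7, and for Sprr1a 123 of 125 day 2 UMIs lay in 1 cell. The transcription factor Tfcp2l1 and the channel kinase Wnk1 were among the genes that fell. With the same call among all cell types for the selected cells, 16 genes were higher and 13 lower, and Spp1 and Tfcp2l1 no longer passed. None of the thick limb calls was made without the library block or at 1000 UMIs per cell, and DESeq2 called 2 genes. The depths differed (medians of 14881.5 and 10141.5 against 7114 and 7799 UMIs), and so did the mitochondrial shares (12.7% and 5.16% against 20.9% and 10.4%). With at most 20% mitochondrial UMIs 5 genes were higher and 1 lower, and 21 of the 25 named calls that could be tested were lost.

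Between libraries, the selected cells of day 7 and day 2 were set side by side without a test. Of 4232 genes with at least 30 UMIs, 533 were at least 2-fold higher on day 7 (12.6%) and 95 at least 2-fold lower (2.24%), and the median gene was higher by 0.21 on the log2 scale, or by 0.0003 with TMM scaling. Vcam1 differed by 4.29 (3.57 to 5.12), and by 5.11 without the highest cell of each library. Antigen presentation and interferon genes had a median of 2.65, with 11 of 12 at least 2-fold higher, and the same list had a median of 1.38 in the other tubule cells and 1.24 in the other proximal cells. The class II genes Cd74, H2-Aa and H2-Eb1 had a UMI in every selected cell of day 7, at 3080, 1046 and 958 CPM, and the other tubule cells of that library stood at 1675, 854 and 774 CPM. The phagocyte list stood near the same level in both groups, as given above, and its part in these genes was not tested. Of the class I genes, H2-K1 stood at 201 CPM on day 2 and 902 CPM on day 7 in the selected cells, against 252 and 379 CPM in the other tubule cells.

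Immediate-early and heat shock genes had a median of 1.96 in the selected cells, 2.91 in the proximal ones, 0.39 in the other tubule cells and 1.32 in the other proximal cells. Jun stood at 95.9, 947 and 256 CPM in the day 2, day 7 and reversed libraries, with UMIs in 19 of 50, 39 of 52 and 10 of 13 cells. Atf3, a stress-induced factor, stood at 16.4, 146 and 36.6 CPM. Such genes also respond to digestion, and the effect of cell preparation was not tested. Chemokines and cytokines had a median of 1.248, against -0.03 in the other tubule cells and 0.35 in the other proximal cells. Ccl2, the monocyte attractant, had no UMI on day 2 and 304 on day 7, of which 213 were in 1 cell, and all 47 of the reversed library were in 1 cell. Cxcl10 stood at 9.36, 89.8 and 109.7 CPM, in 4, 10 and 3 cells.

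Lcn2 and Clu were lower at the later time points. Lcn2 stood at 3989 CPM in the day 2 library (3802 to 4183), at 1860 CPM in that of day 7 (1746 to 1979) and at 863 CPM in the reversed one (714 to 1033), and within loop and distal cells at 5907, 2835 and 2381 CPM. In the other tubule cells Lcn2 was likewise lower later, at 1770, 1063 and 189.5 CPM. The list of distal transport genes had a median of 0.61 on day 7 over day 2. With the gene at 0 in a library set to its bound, the median was -0.19. The counting interval lay above 0 for 1 of its 10 genes and below 0 for 4, against 1258 and 473 of the 13889 genes detected. Clu stood at 6285, 3248 and 1806 CPM, while in proximal cells it was near 225 to 266 CPM throughout. The largest decreases by the naming rule were Cyp2a5, Ifit3b, Egf, Klk1, Ifit3, S100g, Sprr1a, Wfdc15b, Epn3 and Ppp1r1a. Some were carried largely by 1 cell: 30 of the 37 Cyp2a5 UMIs, 122 of the 138 Klk1 UMIs and 275 of the 371 S100g UMIs of day 2 lay in 1 cell each. Without the highest cell of each library Klk1 differed by -0.27 and Sprr1a by 0.48, while the other 8 still differed by -1.40 (Egf) to -4.13 (Cyp2a5). Within the selected proximal cells alone the direction turned for Ifit3b (3.69), Ifit3 (5.03), Sprr1a (3.16) and Ppp1r1a (2.31). The largest increases after Ccl2 were Iigp1, Klf4, H2-Q7, Stra6, Phlda1, Vcam1, Ubd, Ptgds and H2-Eb1. Stra6, the receptor for retinol binding protein, had 1 UMI on day 2 and 39 on day 7 in 14 cells, and stood at 139 CPM after reversal.

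**Figure D4:**
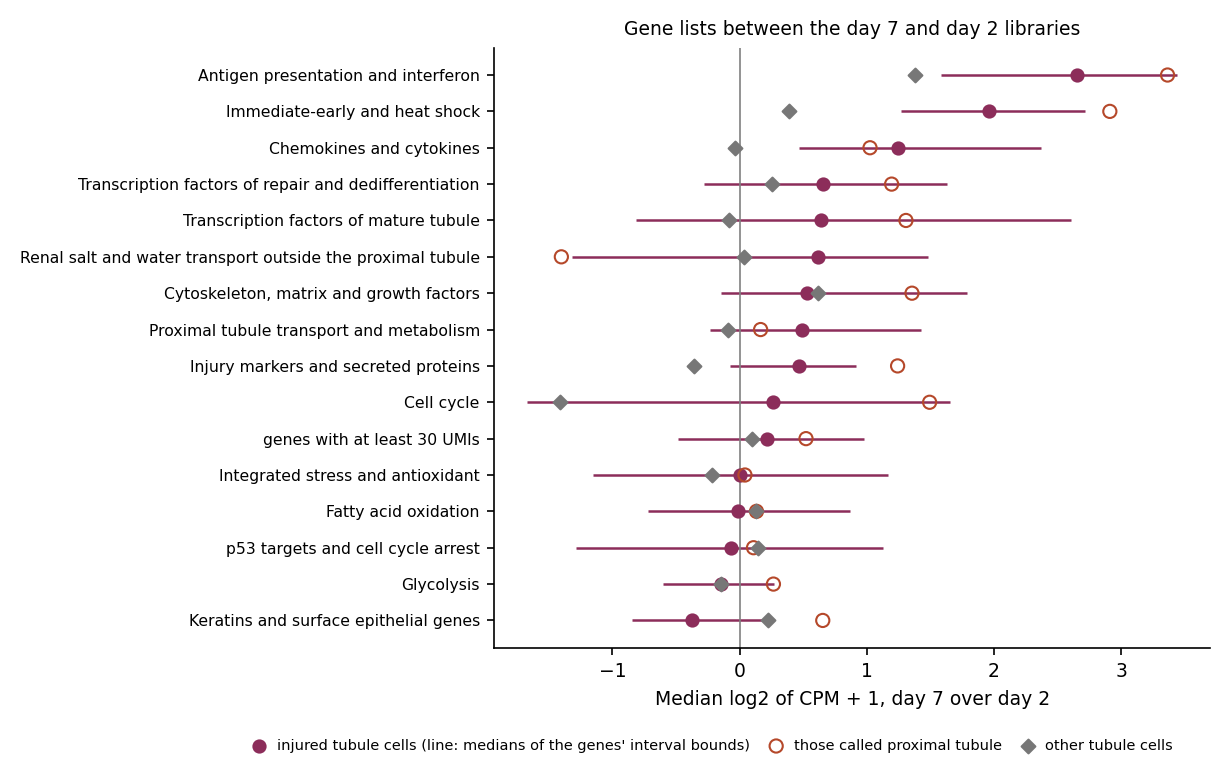
Median log2 of CPM plus 1 on day 7 over day 2 for 15 gene lists and for all genes with at least 30 UMIs; filled circles are the selected cells, with lines joining the medians of the lower and upper counting bounds of the genes, open circles those called proximal tubule, and diamonds the other tubule cells. Antigen presentation, immediate-early and chemokine genes lie highest, at 2.65, 1.96 and 1.248.

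Among the 7 proximal cells of the reversed library 5 reached 3 Vcam1 UMIs, and 1 of these, with 3 Vcam1 and 15 Lcn2 UMIs, was the proximal cell that also reached the Lcn2 count. Of its 3 loop cells 2 reached 10 Lcn2 UMIs, and 5 of its 13 cells reached neither count. Proliferation genes rested on few UMIs and cells. Mki67 had 1 UMI on day 2, 5 on day 7 and 11 after reversal, 10 of these in a single cell, and Top2a had 4, 4 and 22, with 15 of the last in 1 cell. Pcna, the replication clamp, was the 1 cell cycle gene tested in proximal cells and rose by 2.77 (SE 0.55, adjusted p = 0.00808), at 35.2, 39.6 and 399 CPM against 20.9, 11.6 and 17.4 CPM, with 24 of its 36 reversed UMIs in 1 of 7 cells. Without the reversed library the estimate for Pcna was 1.04 and did not pass. With the reversed library added to the test of all selected cells, 1 of 9 cell cycle genes rose, the replication helicase gene Mcm5 (1.93, SE 0.40, adjusted p = 0.0384), and the median of the list was 1.51, against -0.40 without that library. Cdkn1a stood at 81.9, 61.7 and 263 CPM, with 30 of its 36 reversed UMIs in 1 of 3 cells. Levels in the reversed library thus often stood for 1 or 2 cells.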

How the data were processed

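Unnormalized UMI counts were deposited by the authors as a gene-by-cell matrix for each of 4 droplet libraries; Cell Ranger, STAR and the build GRCm38 (mm10) are named per the submitters' processing notes. The Smart-seq2 sample was not used here. Files listed 28692 genes in all libraries, and 0 columns lacked a sample. The members, marker lists and gene lists were chosen with earlier results of these data known. For each tubule segment, marker levels were divided by their mean in reference cells (highest for that list, at least 10 UMIs of it, no Havcr1 or Krt20), capped at 3 and averaged; the highest score gave the segment if the list had at least 3 UMIs and its score was 1.25 times the next. Comparison cells also had to score highest for a segment among all cell types. Scrublet in scanpy 1.11.5 marked 1 to 3 cells per library with its automatic threshold and had not worked, so no cell was removed, and removing the highest scores at 0.8% per 1000 cells was an alternative. UMIs were summed per library and cell group and tested with edgeR 4.0.16 (R 4.3.3; TMM, filterByExpr, glmQLFit, library as block, adjusted p under 0.05). Genes of the rule were not tested. Tests within a segment left out only that segment's marker list, and the test between segments left out all segment lists. The S1 and S3 lists of the proximal tubule, which helped to choose reference cells, were left out of no test. Only the test of all selected cells had at least 20 cells per sum, so the designed tests by segment and of Krt20-led cells could not be fitted and those reported use smaller sums, added after seeing the data. Simulated sums, drawn with the same dispersion for every gene, were run through the tests. They did not model genes carried by a single cell, so they cannot check such calls. CPM are UMIs per 1000000 summed UMIs, and ratios between libraries use log2 of CPM plus 1, which understates changes of low genes. A gene at 0 in a group was set to 3 UMIs over the group for a bound. The SE given with an edgeR estimate is its size without sign, divided by the square root of the F statistic of the test. Genes are named if they are in the lists or among the 10 largest increases or decreases with adjusted p under 0.05 and the same direction in every library (between libraries, with at least 30 summed UMIs and 50 CPM). Other tools were Python 3.11.15, pandas 2.3.3, numpy 2.4.6, scipy 1.17.1, anndata 0.12.19, matplotlib 3.10.9 and DESeq2 1.42.0. Gene positions are from GENCODE annotation on GRCm38.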

Additional observations from a re-analysis of the deposited data

How the results depend on the processing

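Levels between time points rest on 1 library each and 13 cells after reversal, and many calls rest on few cells. The shares of selected cells moved with the UMI limit and with depth. With 1 UMI of Havcr1 or Krt20 required, they were 0.127%, 5.57%, 2.63% and 0.958% of kept cells in sham, day 2, day 7 and reversed libraries, and 0.142%, 10.2%, 16.2% and 1.89% of tubule cells. With 3 UMIs required, day 2 gave 1.495% and 2.75% and day 7 gave 0.832% and 5.39%. At 1000 UMIs per cell, they were 0.906% and 1.67% on day 2, 0.472% and 3.07% on day 7, and 0.124% and 0.245% after reversal. Without the fibrinogen limit, they were 4.62% and 8.5% on day 2 and 1.60% and 10.2% on day 7. The limit of 20% mitochondrial UMIs gave 2.13% of tubule cells after reversal, and 29.6% proximal and 51.9% loop cells on day 2. Thinning put the Vcam1 share of day 7 at 30.8% and the Sox9 shares at 0%, 3.85% and 0%.

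In proximal cells alone, the day 7 over day 2 medians were 1.24 for injury genes, 0.65 for keratins, 2.91 for immediate-early genes and -1.40 for distal transport genes, and thinning gave 2.02 for cytoskeleton genes. Signs turned in proximal cells for Ifit3b (3.69), Ifit3 (5.03), Sprr1a (3.16), Ppp1r1a (2.31) and Clu (0.051), at 1000 UMIs for Krt7 (0.43), and in the proximal test at 1000 UMIs for Slc17a3 (0.26). The causes were not tested.

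Counts of genes higher and lower in all selected cells were 54 and 90 with total UMIs in place of TMM, 34 and 48 with DESeq2, 199 and 350 without a filter on low counts, 4 and 4 at 1000 UMIs, 175 and 221 with 20% mitochondrial UMIs, and 172 and 248 with 3 UMIs required. With the reversed library added they were 71 and 119, and leaving out 1 library each then gave 78 to 155 higher and 138 to 170 lower. In the proximal test they were 121 and 104 with the same call among all cell types, 109 and 132 with DESeq2, 35 and 41 at 1000 UMIs, 26 and 25 with 20% mitochondrial UMIs, 448 lower without the filter and 117 lower without TMM. Leaving out 1 library each gave 56 to 464 higher and 43 to 581 lower. In the thick limb test they were 2 and 0 with DESeq2, 0 and 0 at 1000 UMIs, 5 and 1 with 20% mitochondrial UMIs, 38 and 39 with 3 UMIs required, 8 lower without TMM, 30 lower without the filter and 35 higher with the highest doublet scores removed. Between proximal cells and loop, distal or collecting cells they were 111 and 69 with DESeq2, 317 and 206 without the filter and 21 and 19 at 1000 UMIs. They were 99 and 70 with 20% mitochondrial UMIs, and 95 were higher with 3 UMIs required. Leaving out 1 library each gave 35 to 115 higher and 16 to 79 lower.

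Without the library as replicate block, 1 gene was higher and 4 lower in all selected cells, 149 were lower in the proximal test, and 0 and 0 were called in the thick limb. The block pairs sums from the same pooled mice and run. Leave-one-out fits of the 2-library tests were not run, since no residual degrees of freedom remain. The designed tests for loop, distal and Krt20-led cells could not be fitted. Of the summary values under the alternatives, 216 kept their direction and size and 93 moved. Of the values of single genes, 1341 kept their side of the threshold or size, 386 no longer passed, 62 moved and 7 reversed.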
